A study of Mus musculus with 18 samples.

Results

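The 10 genes described here mark the inhibitory neurons of the cortex, which use gamma-aminobutyric acid (GABA) as their transmitter. They are Gad1, Gad2, Dlx1, Dlx2, Dlx5, Lhx6, Sst, Npy, Calb2 and Th, chosen by name but with earlier results of these data known. Counts of them set beside the share of all genes are therefore descriptions. All 10 were found by symbol among the 54532 genes of the deposited count table. RNA had been sequenced from frontal cortex at birth (postnatal day 0), in mice that were either double mutant for the retinoid receptor genes Rxrg and Rarb (dKO) or control. Orbital, medial and dorsal tissue gave 3 libraries per genotype, 18 in all. The labels give no strain, altered exon, sex or animal for any library, and do not say what alleles the controls carry. By title prefix and index sequence the libraries form 6 index rows, each with the 3 regions of a genotype, and 3 sets (A, B and C) of a dKO and a control row. Nothing states whether the 3 libraries of a row came from the same brain or whether replicates are separate animals, so p-values measure the spread between these samples, which may be technical.

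Cortical interneurons are born outside the cortex, in the ganglionic eminences of the ventral forebrain, and migrate into it before birth. The homeodomain factors Dlx1, Dlx2 and Dlx5 act early, in dividing precursors and young neurons of that origin, and are also transcribed in the precursors of olfactory bulb interneurons. Lhx6 follows in cells of the medial ganglionic eminence, many of which later make the peptides somatostatin (Sst) and neuropeptide Y (Npy). Calretinin (Calb2) marks many cells of the caudal eminence and some other neurons. Tyrosine hydroxylase (Th) makes the precursor of dopamine, and the glutamate decarboxylases Gad1 and Gad2 make GABA itself. Retinoic acid receptors are nuclear receptors that bind DNA as a pair of a RAR and an RXR.

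The library totals were 28957325 to 93093398 fragments assigned to genes, and set A was deeper (at least 52317649) than sets B and C (at most 39158792). Of the targeted genes, Rarb was at 1.19 to 4.85 CPM (counts scaled to a library total of 1000000) in the 9 dKO libraries and at 3.5 to 13.9 CPM in the 9 controls. Rxrg was at 0.377 to 2.90 CPM in dKO and 1.64 to 30.5 CPM in controls. Both ranges overlap, and the counts cover whole genes. For Xist, the 6 dKO libraries in set A or set C held 9.45 to 31.4 CPM and the remaining libraries no more than 0.155 CPM. The Y-linked Ddx3y was at most 0.203 CPM in those 6 libraries and at least 58.3 CPM in all others. Sex and genotype therefore cannot be told apart in sets A and C, and set B alone compares like with like. As to the labelled tissue, 13 markers of cortical glutamatergic neurons summed to 2554 to 3125 CPM in dKO and 1860 to 3365 CPM in control libraries, and none was at 0 in any group.

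On mouse build GRCm38, Dlx1 (ENSMUSG00000041911, chr2:71528113-71533981, plus strand) and Dlx2 (ENSMUSG00000023391, chr2:71543408-71546754, minus strand) face each other across 9426 bases. Gad1 (ENSMUSG00000070880, chr2:70553072-70602014, plus), Gad2 (ENSMUSG00000026787, chr2:22622205-22693874, plus) and Lhx6 (ENSMUSG00000026890, chr2:36081953-36105408, minus) share that chromosome. Dlx5 (ENSMUSG00000029755, chr6:6877805-6882085, minus) and Npy (ENSMUSG00000029819, chr6:49822710-49829507, plus) lie on chromosome 6. Sst (ENSMUSG00000004366, chr16:23889573-23890958, minus), Calb2 (ENSMUSG00000003657, chr8:110137502-110168210, minus) and Th (ENSMUSG00000000214, chr7:142892752-142931128, minus) stand alone. Fragments were counted without regard to strand. Dlx1 shares 6.21% of its exon bases with the antisense gene Dlx1as, and Lhx6 shares 2.16% with Gm27953, so those stretches cannot be assigned to a single gene. The exons of the other 8 genes touch no other gene of the table.

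RefSeq promoter windows of 300 bases (250 before and 50 after the start site, GRCm38.p6) were available for 8 of the 10 genes, as 10 windows. The motif TGACGTCA, the cAMP response element, stood in 2 of these, Sst and Th, and in 1.79% of all 32851 windows. It lay 48 bases before the Sst start and 45 bases before the Th start. Both windows are printed because the 2 genes share this motif yet lay far apart in level. The third window, of Dlx1, holds the nuclear receptor half-site AGGTCA, read on the printed strand as TGACCT, 29 bases before the start. That half-site occurred in 16.3% of all windows and in no other window of the 10 genes. Capitals mark the motifs, each searched on both strands with overlaps allowed, and each window is written 5′ to 3′ on the gene's strand: Sst chr16:23890795-23891094 (minus), Th chr7:142899946-142900245 (minus) and Dlx1 chr2:71529195-71529494 (plus).
Sst: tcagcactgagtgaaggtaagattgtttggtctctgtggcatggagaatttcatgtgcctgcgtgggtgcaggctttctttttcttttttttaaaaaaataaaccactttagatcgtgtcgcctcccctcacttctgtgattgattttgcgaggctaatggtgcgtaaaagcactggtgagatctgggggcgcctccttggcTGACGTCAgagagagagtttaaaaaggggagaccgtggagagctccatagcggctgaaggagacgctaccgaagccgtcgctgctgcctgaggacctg
Th: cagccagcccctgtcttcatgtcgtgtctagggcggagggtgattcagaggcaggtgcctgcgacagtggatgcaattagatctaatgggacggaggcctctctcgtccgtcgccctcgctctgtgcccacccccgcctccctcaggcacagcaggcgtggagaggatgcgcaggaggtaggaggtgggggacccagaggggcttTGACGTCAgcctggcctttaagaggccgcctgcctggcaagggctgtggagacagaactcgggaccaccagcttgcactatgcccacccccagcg
Dlx1: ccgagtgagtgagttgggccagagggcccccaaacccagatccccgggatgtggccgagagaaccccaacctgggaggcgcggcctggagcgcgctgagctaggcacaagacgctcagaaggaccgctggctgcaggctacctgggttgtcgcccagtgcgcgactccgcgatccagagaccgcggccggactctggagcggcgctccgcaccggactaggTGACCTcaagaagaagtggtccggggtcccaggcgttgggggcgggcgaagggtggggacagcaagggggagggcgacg
A match describes letters and not binding. Of the other motifs, TATAAA was found in the Gad1 window and in 1 of the Lhx6 windows (13.6% of all windows). The homeodomain core TAATTA (5.29% of all windows) and the direct repeat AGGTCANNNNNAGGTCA (0.00913%) were in none of these 10 windows.

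Per kilobase of exon, Npy was the most abundant of the genes, with a mean over all 18 libraries of 253 CPM per kb. Sst followed at 58.4 and Lhx6 at 37.6 CPM per kb, ahead of Dlx2 at 22.6, Dlx1 at 15.3 and Calb2 at 10.2. Gad2, Gad1 and Dlx5 lay close together at 7.09, 6.59 and 6.09 CPM per kb, and Th was lowest at 0.465. The spread between libraries exceeds the steps between those 3 neighbours: Gad2 alone ran from 18.5 to 75.3 CPM and Gad1 from 34.7 to 68.1 CPM. Without the division by length, Lhx6 came first (mean 181 CPM) and Npy second (143 CPM). The steadiest of the 10 was Lhx6, whose highest library was 1.82 times its lowest, and Gad1 was next at 1.96 times. Dlx2 (6.65 times), Calb2 (6.42 times) and Dlx5 (5.71 times) varied most, apart from Th, which had 0 fragments in 1 control dorsal library. In bulk tissue, fewer cells of a type and less RNA per cell cannot be told apart.

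**Figure D1:**
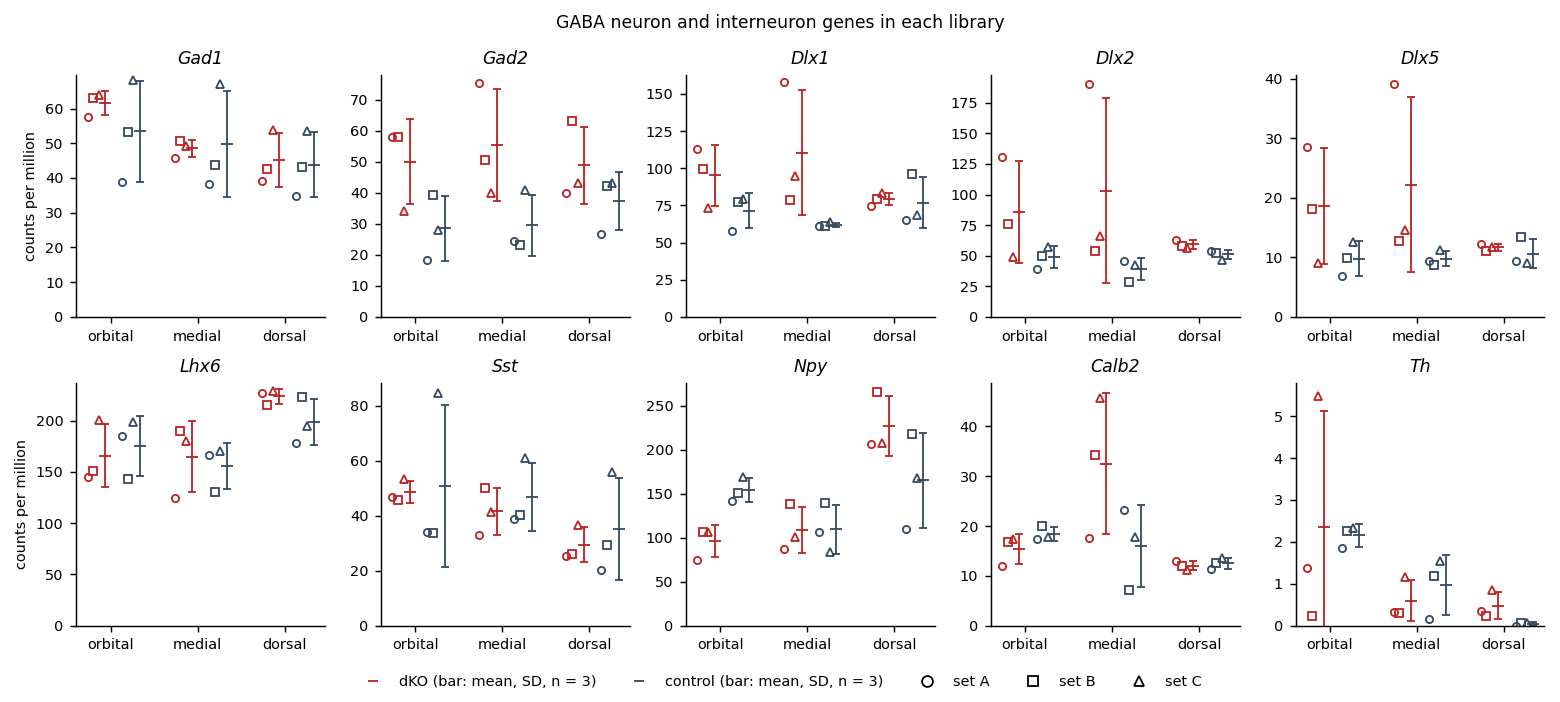
CPM (y axis, linear from 0) of the 10 genes in each of the 18 libraries, by region (x axis). Red symbols are dKO and dark symbols control, their shape gives the set, and the dash with bars is the mean and SD of 3 libraries (bars are cut at 0). The dKO libraries of set A stand highest for Dlx1, Dlx2 and Dlx5 in orbital and medial tissue.

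No gene of the 10 passed the test for a difference between dKO and control in any region (edgeR quasi-likelihood test, adjusted p under 0.05 over 18730 genes). The count was 0 of 10 in orbital tissue, where 0.0374% of all genes tested passed, 0 of 10 in medial tissue, where 2.08% passed, and 0 of 10 in dorsal tissue, where 0.0214% passed. With the regions of a row summed, it was again 0 of 10 (0.0249% of 20083 genes). At unadjusted p under 0.05 the counts were 4 of 10 for orbital, 5 for medial, 1 for dorsal tissue and 3 for the summed data, against 13.9%, 15%, 6.78% and 9.03% of all genes. DESeq2 called 2 of the genes in medial tissue, Dlx1 and Dlx2, and none in orbital or dorsal tissue or in the summed data. By the second measure, groups whose 3 dKO and 3 control libraries do not overlap in CPM, there were 2 genes in orbital tissue (both lower in dKO, background 14%), 3 in medial tissue (all higher in dKO, background 18.1%) and 2 in dorsal tissue (both higher in dKO, background 10.1%).

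**Figure D2:**
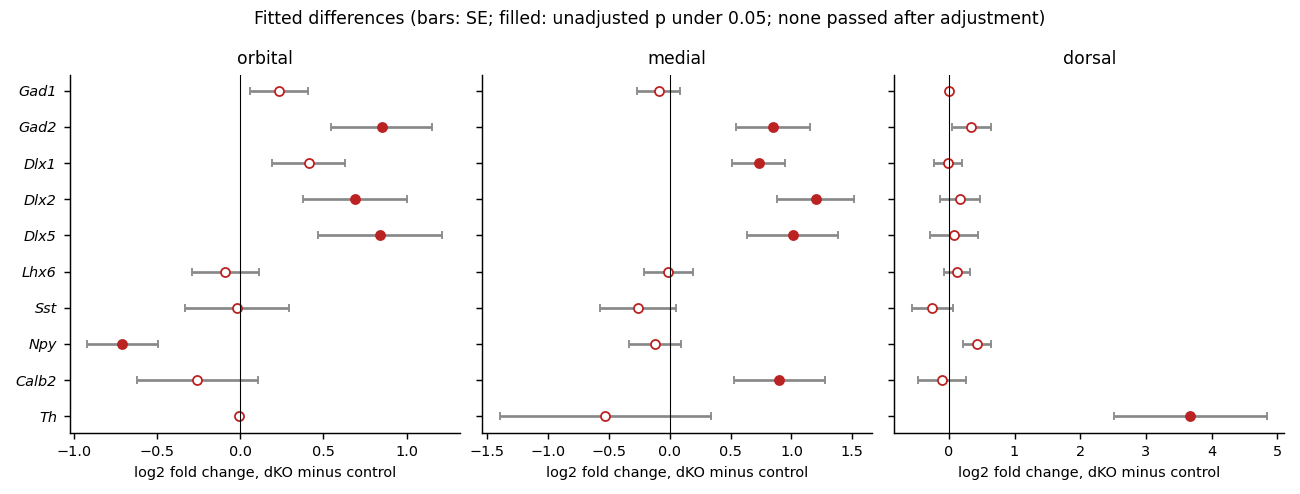
Fitted log2 fold change of dKO minus control (x axis, a separate scale per region) for the 10 genes (rows), with bars for the SE. Filled points had an unadjusted p under 0.05, and none passed after adjustment. Dlx2 in medial tissue, at 1.20, came nearest to the threshold. Gad1 in dorsal and Th in orbital tissue, at -0.00 and -0.01, have no bar because the SE was left out at such high p.

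Dlx2 and Dlx1 had the lowest p of the 10 genes in medial tissue. Dlx2, the homeodomain factor that switches on GABA neuron genes in precursors, had 190, 54.1 and 65.8 CPM in the medial dKO libraries of sets A, B and C, against 45.5, 28.5 and 42.6 CPM in control. Each dKO library was above each control library, and set A stood far above the others. The fitted log2 fold change was 1.20 (SE 0.317), at an adjusted p of 0.0606. It moved across the threshold with the method: the adjusted p was 0.00276 with no filter on low counts, 0.00715 with DESeq2, 0.0448 with limma-voom and 0.0479 with the set as a replicate block, in a range of 0.00276 to 0.383 over the alternatives. Without the medial dKO library of set A, the log2 fold change was 0.67 (adjusted p = 0.383), and without set A altogether 0.73 (adjusted p = 0.325). In set B, whose pups match in Xist and Ddx3y, the log2 CPM difference was 0.92, beside 2.06 in set A and 0.62 in set C.

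Dlx1, the partner of Dlx2 in the same gene pair, had 158, 78.4 and 94.8 CPM in medial dKO libraries (sets A, B and C) and 61.1, 61.0 and 63.5 CPM in medial controls. The controls had an SD of 1.41 CPM, and all 3 dKO libraries were above them (log2 fold change 0.73, SE 0.219, adjusted p = 0.0963). It was 0.40 without the dKO library of set A (adjusted p = 0.511), and over the alternatives the adjusted p ran from 0.031 to 0.511. Dlx5, which acts downstream of that pair, had 39.1, 12.8 and 14.6 CPM in medial dKO and 9.44, 8.76 and 11.2 CPM in medial control (1.01, SE 0.374, adjusted p = 0.193). These groups did not overlap either, and the log2 fold change was 0.46 without the same library.

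In orbital tissue the same library row stood out. Dlx2 had 131, 76.2 and 49.3 CPM in orbital dKO (sets A, B and C), against 39.2, 50 and 57.2 CPM in control, and Dlx5 had 28.5, 18.2 and 9.12 CPM against 6.85, 9.96 and 12.6 CPM. The groups overlapped, since the set C libraries went the other way: the log2 CPM differences in sets A, B and C were 1.74, 0.61 and -0.21 for Dlx2 and 2.05, 0.87 and -0.46 for Dlx5. The fitted log2 fold changes were 0.69 (SE 0.314, adjusted p = 0.344) and 0.84 (SE 0.374, adjusted p = 0.337). Without set A they were 0.28 and 0.33. Dlx1 had 113, 99.3 and 73.1 CPM in orbital dKO and 57.9, 77.4 and 79.1 CPM in control, with a log2 fold change of 0.41 (SE 0.218).

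Dorsal tissue showed little of this. Dlx2 had 63.0, 58.1 and 56.5 CPM in dorsal dKO (sets A, B and C) and 54.2, 52.4 and 46.6 CPM in control, groups that did not overlap but differed by only 0.17 on the log2 scale (SE 0.311). Dlx1, at 79.0 ± 4.05 CPM in dKO and 76.7 ± 17.2 CPM in control (SD, n = 3), and Dlx5, at 11.7 ± 0.682 and 10.6 ± 2.40 CPM, overlapped, with log2 fold changes of -0.01 and 0.08. The dKO effect on Dlx2 was larger in medial than in dorsal tissue by 0.95 (SE 0.383, adjusted p = 0.882 for this difference of effects), which did not pass. For the difference of the dKO effect between orbital and dorsal tissue 0 of the 10 genes passed (0% of all genes), likewise for medial minus dorsal (0%) and for medial minus orbital (1.47%). At unadjusted p under 0.05 these counts were 2, 4 and 2 of the 10 genes, against 12.6%, 5.17% and 20.6% of all genes. DESeq2 called 1 of them, Npy, for orbital minus dorsal and none for the other 2 differences.

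Values of 2 further gene lists are set beside those of the Dlx genes. The first list, of transcription factors of the forebrain GABA lineage, has 9 genes besides the Dlx genes here (8 tested). Its summed level was 304, 124 and 152 CPM in medial dKO (sets A, B and C) and 104, 88.3 and 122 CPM in medial control. In orbital tissue it was 236, 144 and 125 CPM in dKO and 105, 116 and 155 CPM in control, so that the libraries of set A again stood out. None of the 8 tested genes passed in any dKO comparison with edgeR, with 2, 5 and 0 of them at unadjusted p under 0.05 in orbital, medial and dorsal tissue. Over all genes 13.9%, 15% and 6.78% had such a p, the background for this and the later list counts of dKO minus control. DESeq2 called 4 of the 8 in medial tissue (among them Gsx2, Sp8 and Sp9), 1 in orbital tissue (Dlx6) and 0 in dorsal tissue. The median log2 fold change of the 8 was 0.85 for orbital, 1.05 for medial and 0.31 for dorsal tissue, against -0.03, -0.00 and -0.01 over all genes.

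The second list, of 13 cell cycle and progenitor genes, summed to 787, 497 and 516 CPM in medial dKO and 244, 262 and 213 CPM in medial control. Of its 13 genes 9 rose in medial dKO and none fell, with a median of 1.57, where 221 of all 18730 genes tested rose and 168 fell. Among the 9 were the mitotic kinase gene Cdk1 (1.37, SE 0.18, adjusted p = 0.0026), the mitosis genes Cdc20 (1.49) and Aurka (1.57), and Pax6 (2.46), a factor of radial glia and of some olfactory bulb interneurons. Without the medial dKO library of set A 6 of the 13 rose, and without set A altogether 1 did. In orbital and dorsal tissue 0 of 13 passed with edgeR (2 and 1 with DESeq2), with medians of 0.66 and 0.65. At unadjusted p under 0.05 there were 8 in each, against 13.9% and 6.78% of all genes. The part of dividing cells in the Dlx values was not tested. Of 13 olfactory bulb neuron markers Pax6 and Eomes rose in medial dKO. Both also belong to the cell cycle and progenitor list and are among its 9 calls. Without the dKO library of set A 1 gene rose, and without set A altogether 0 did. At unadjusted p under 0.05 there were 6, 5 and 1 in orbital, medial and dorsal tissue, and 2, 3 and 0 passed with DESeq2. The medians of these markers were 0.46 (orbital), 0.62 (medial) and 0.11 (dorsal tissue). Striatal projection neuron markers (18 genes, 0 past the edgeR test in each region, 3, 2 and 0 at unadjusted p under 0.05, and 1, 1 and 0 with DESeq2) had medians of -0.20, -0.22 and -0.25.

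**Figure D3:**
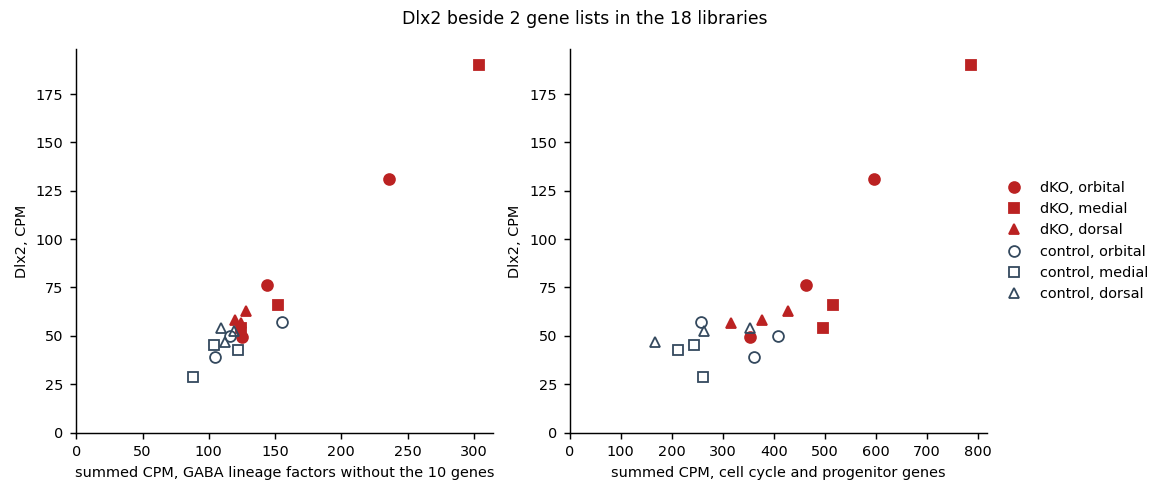
Dlx2 (y axis, CPM) against the summed CPM of 2 lists (x axes): 9 transcription factors of the GABA lineage without the genes described here, and 13 cell cycle and progenitor genes. Each point is a library, filled red for dKO and open for control, and the shape gives the region. The medial and orbital dKO libraries of set A, at 190 and 131 CPM of Dlx2, lie at the upper right in both panels.

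Across the 18 libraries the Dlx genes followed each other closely. Pearson's r of log2 CPM was 0.91 for Dlx1 with Dlx2, 0.94 for Dlx1 with Dlx5 and 0.94 for Dlx2 with Dlx5. These values are descriptions: the 18 points share rows, depth and, at the upper end, the libraries of set A. Among 10940 genes that averaged 5 CPM or more, the 3 most like Dlx2 were Sp9 (r = 0.97), Cdca7 (0.89) and Sp8 (0.87). Those most like Dlx5 were Sp9 (0.93), Sox2 (0.90) and Dlx6os1 (0.89), and the same 3 genes came nearest to Dlx1 (Sox2 0.91, Sp9 0.90, Dlx6os1 0.89). Sp8 and Sp9 are zinc finger factors of GABA neuron precursors, Sox2 is a factor of neural stem cells, and Sp8, Sp9 and Sox2 also belong to the lists above.

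The 2 decarboxylase genes are taken in turn. Gad2 had 75.3, 50.7 and 40.0 CPM in medial dKO (sets A, B and C), against 24.6, 23.2 and 40.9 CPM in control. In orbital tissue it had 57.9, 58.1 and 34.3 CPM in dKO, against 18.5, 39.3 and 28 CPM in control. The groups overlapped in both regions, though 2 dKO libraries exceeded all controls in medial as in orbital tissue. The log2 fold change was 0.85 in each (SE 0.302 in medial and 0.303 in orbital), at adjusted p of 0.174 and 0.234. Without the dKO library of set A it was 0.45 in medial and 0.67 in orbital tissue. Gad2 had 40.1, 63.2 and 43.2 CPM in dorsal dKO and 26.6, 42.2 and 43.3 CPM in dorsal control (0.34, SE 0.299).

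Gad1 was nearly level between genotypes. It had 45.7, 50.7 and 49.1 CPM in medial dKO and 38.2, 43.8 and 67.0 CPM in medial control, and its log2 fold changes were 0.23 for orbital (SE 0.175), -0.09 for medial (SE 0.175) and -0.00 for dorsal tissue. Over the libraries Gad2 followed the Dlx genes (r of 0.73 to 0.78) more than it followed Gad1 (0.31), while Gad1 followed Sst (0.83). The genes most like Gad2 were Crtc3 (0.89), Phf21b (0.86) and Rock1 (0.83), and those most like Gad1 were Plpp6 (0.88), Gstm1 (0.88) and Sirpa (0.87). Of the 6 other genes of GABA synthesis, transport and breakdown, 0 passed in any region with edgeR or DESeq2 (1, 0 and 1 at unadjusted p under 0.05 in orbital, medial and dorsal tissue). Their medians were -0.01, -0.21 and -0.13 in orbital, medial and dorsal tissue. Their summed level was 385 to 504 CPM in medial dKO and 250 to 617 CPM in medial control.

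Lhx6 and Sst, genes of the medial eminence lineage, differed little between genotypes. Lhx6 had 125, 190 and 180 CPM in medial dKO (sets A, B and C) and 167, 130 and 170 CPM in medial control. Its dorsal libraries were at 227, 215 and 229 CPM in dKO and 178, 223 and 195 CPM in control. The log2 fold changes were -0.09, -0.01 and 0.12 in orbital, medial and dorsal tissue, each with an SE of 0.199, and a p that misses the threshold does not show that the genotypes were alike. Sst, the peptide of many medial eminence interneurons, was uneven among the controls: it had 46.9, 45.9 and 53.4 CPM in orbital dKO and 34, 33.8 and 84.8 CPM in orbital control. The control library of set C was highest for Sst in each region (60.9 CPM in medial and 56.1 CPM in dorsal tissue), and the dKO effect did not pass in any region (-0.02, -0.26 and -0.25 in orbital, medial and dorsal tissue).

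The 13 other tested genes of the medial eminence list gave 0 calls in each region with edgeR (2, 1 and 3 at unadjusted p under 0.05 in orbital, medial and dorsal tissue, and 1, 0 and 0 with DESeq2, the 1 being Chodl), with medians of -0.18, 0.01 and -0.09 in orbital, medial and dorsal tissue. Pvalb, the marker of a late-maturing class, was at 0 in all 3 libraries of medial dKO, medial control and dorsal control tissue. Lhx6 levels ran with Npy (r = 0.67) and least with Dlx5 (-0.41). The genes most like Lhx6 were Slc29a4 (0.83), Relt (0.78) and Grina (0.78), and those most like Sst were Higd1a (0.88), Hsbp1 (0.87) and Bloc1s6 (0.86).

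Of the 10 genes, Npy had the lowest p for a difference of the dKO effect between regions. It had 75.1, 107 and 106 CPM in orbital dKO (sets A, B and C), against 142, 151 and 169 CPM in orbital control, with no overlap (log2 fold change -0.71, SE 0.212, adjusted p = 0.181). In medial tissue it had 86.8, 138 and 101 CPM in dKO and 106, 139 and 83.2 CPM in control, and the groups overlapped (-0.12, SE 0.211). In dorsal tissue it had 206, 266 and 208 CPM in dKO and 110, 218 and 168 CPM in control (0.43, SE 0.211, adjusted p = 0.751). The dorsal groups overlapped as well, since dKO of set A and dKO of set C both lay under the control of set B. Within sets A, B and C the log2 CPM difference of dKO minus control was -0.92, -0.50 and -0.68 in orbital tissue and 0.90, 0.29 and 0.30 in dorsal tissue.

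Across regions in dKO pups, orbital tissue held less Npy than dorsal tissue, 95.9 ± 17.9 CPM against 227 ± 34.2 CPM (SD, n = 3). This was a fitted difference of -1.30 on the log2 scale (SE 0.188, adjusted p = 0.007). Npy was the only gene of the 10 to pass there with edgeR, where 0.486% of all genes passed. At unadjusted p under 0.05 there were 5 of 10, against 7.26% of all genes, and DESeq2 called Gad1, Sst and Npy. Medial tissue of dKO pups also held less Npy than dorsal tissue (109 ± 26.6 CPM against 227 ± 34.2 CPM, -1.14, SE 0.187, adjusted p = 0.00749), again as the only gene of the 10 with edgeR (2.09% of all genes). There too 5 of 10 had an unadjusted p under 0.05, against 17.8% of all genes, and DESeq2 called Lhx6, Npy and Calb2. For Npy all 3 dorsal dKO libraries were above all 6 other dKO libraries. Both edgeR calls of Npy needed all or most rows. Without the dKO row of set A or B the adjusted p for Npy was 0.247 or 0.102 for orbital minus dorsal. Without the dKO row of set A, B or C it was 0.157, 0.0665 or 0.0545 for medial minus dorsal. Over all alternatives these p-values ran from 2.38e-10 to 0.247 and from 3.36e-09 to 0.157.

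In control pups neither difference passed for Npy, which stood at -0.16 for orbital minus dorsal (SE 0.185, adjusted p = 0.613) and -0.61 for medial minus dorsal (SE 0.186, adjusted p = 0.259). With no filter the medial minus dorsal difference passed (adjusted p = 0.0131). The test of the difference between genotypes gave -1.14 for orbital minus dorsal (SE 0.263, adjusted p = 0.162), which did not pass over all genes. With DESeq2 it passed (adjusted p = 0.00866), and the adjusted p ran from 0.000343 to 0.882 over the alternatives. Of the 8 receptor genes for SST and NPY, 0 passed for dKO minus control with edgeR (0, 1 and 0 with DESeq2 in orbital, medial and dorsal tissue, the 1 being Sstr5). At unadjusted p under 0.05 there were 0, 5 and 0 of the 8, against 13.9%, 15% and 6.78% of all genes. The medians of the 8 were -0.36, -0.91 and -0.43 in orbital, medial and dorsal tissue. Among the genes most like Npy over the libraries were Hpca (0.89) and Mmrn1 (0.83).

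**Figure D4:**
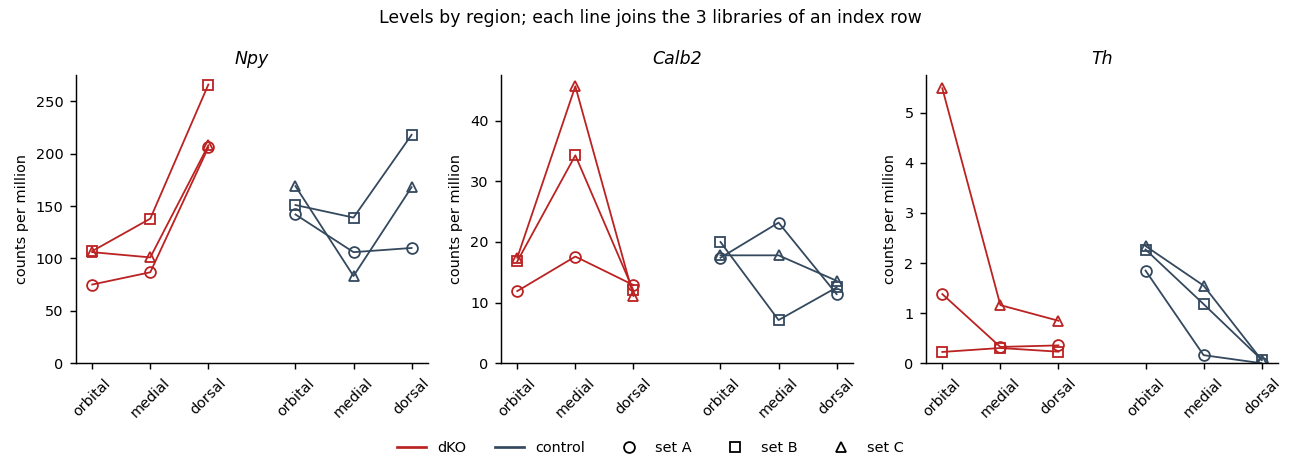
CPM (y axes, linear from 0) of Npy, Calb2 and Th by region, dKO rows in red on the left and control rows on the right of each panel. A line joins the 3 libraries of an index row. Npy is highest in dorsal tissue in every dKO row, and Th falls to at most 0.0691 CPM in dorsal controls.

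Calb2, the calcium-binding protein calretinin, had its largest difference between genotypes in medial tissue. It had 17.6, 34.3 and 45.7 CPM in medial dKO (sets A, B and C) and 23.2, 7.12 and 17.8 CPM in medial control. The groups overlapped, because in set A the control was the higher, and the log2 fold change was 0.90 (SE 0.372, adjusted p = 0.246). In orbital tissue it had 11.9, 16.8 and 17.4 CPM in dKO and 17.4, 20 and 17.8 CPM in control, which fell just short of overlap (17.37 and 17.42 CPM at the nearest), with a log2 fold change of -0.26 (SE 0.363). In dorsal tissue it was 12.0 ± 0.89 CPM in dKO and 12.5 ± 1.10 CPM in control (SD, n = 3).

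Between regions of dKO pups, Calb2 was higher in medial than in dorsal tissue by 1.27 on the log2 scale (SE 0.324, adjusted p = 0.0631), short of the threshold. It passed with no filter (adjusted p = 7.02e-05), with DESeq2 (0.00316), with limma-voom (0.0498) and without the control row of set A or B (0.0318 and 0.0304), and the adjusted p ran from 7.02e-05 to 0.337 over the alternatives. The difference of the dKO effect, medial minus orbital, was 1.23 (SE 0.452, adjusted p = 0.149), and without the control row of set A it was 1.62 (adjusted p = 0.0497). Of the 12 other tested genes of the caudal eminence list, 0 passed in any region with edgeR (3, 2 and 0 at unadjusted p under 0.05 in orbital, medial and dorsal tissue). DESeq2 called Npas1 in orbital and in medial tissue. The list had medians of 0.06, -0.33 and -0.24 in orbital, medial and dorsal tissue. Genes most like Calb2 were Chchd2 (0.80), Msra (0.80) and Serpinb6a (0.78).

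Th, the rate-limiting enzyme of catecholamine synthesis, was near the limit of detection. Orbital tissue had 1.38, 0.225 and 5.49 CPM in dKO (sets A, B and C) and 1.85, 2.27 and 2.34 CPM in control. The controls were close to each other, whereas the dKO libraries spanned both sides of them. Medial tissue had 0.325, 0.304 and 1.16 CPM in dKO and 0.161, 1.18 and 1.55 CPM in control, and dorsal tissue had 0.356, 0.23 and 0.848 CPM in dKO and 0, 0.0691 and 0.063 CPM in control. In dorsal tissue the groups did not overlap, at 57 fragments in the 3 dKO libraries against 4 in the 3 control libraries. That is a ratio of 14.4 in pooled CPM, with a 95% counting interval of 5.33 to 54.7 that leaves out the spread between libraries. The fitted log2 fold change of 3.68 (SE 1.16) had an adjusted p of 0.513.

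Within control pups Th was higher in orbital than in dorsal tissue (5.95, SE 0.858, adjusted p = 0.0017; 317 against 4 fragments, a ratio of 66.9 with a counting interval of 25.9 to 247). It was the only gene of the 10 to pass there, where 15.8% of all genes passed, and it passed in every alternative run for that comparison, at adjusted p of 3.25e-10 to 0.0359. In medial minus dorsal tissue of controls Th also passed alone (4.36, SE 0.861, adjusted p = 0.0426; 106 against 4 fragments, a ratio of 21.7 with an interval of 8.24 to 81.2), beside 0.491% of all genes. Leaving out any single row ended that call, with adjusted p from 0.0568 without the dKO row of set B to 0.285 without the control row of set C. In dKO pups the orbital to dorsal difference was 1.76 (SE 0.653, adjusted p = 0.482), and 1.17 without the row of set C. The test of this difference between the genotypes gave -4.19 (SE 1.09, adjusted p = 0.198). Fitted folds against groups so near 0 depend on the prior count and set no bound.

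Other genes of catecholamine synthesis and transport (9 tested) gave 0 calls for dKO minus control with edgeR or DESeq2 in each region (2, 2 and 0 at unadjusted p under 0.05 in orbital, medial and dorsal tissue). Dbh, which makes noradrenaline, was at 0 in all libraries of orbital and medial tissue. Markers of olfactory ensheathing glia, cells that wrap the olfactory nerve beside the orbital cortex, also differed between regions. In controls 5 of the 8 tested rose in orbital relative to dorsal tissue, among them Prss56 (6.90), and 0 fell. Over all 18730 genes 1196 rose there and 1769 fell. In the same comparison 6 of 9 meningeal, 5 of 8 microglial and 4 of 13 cell cycle and progenitor genes rose. So did 4 of 18 striatal genes (2 fell) and 2 of 13 olfactory bulb genes (1 fell). With no replicate block, 3 ensheathing glia genes rose and 1 of each of these other lists. The ensheathing glia list of 9 genes summed to 329 to 554 CPM in orbital dKO, against 698 to 798 CPM in orbital control. It summed to 513 to 797 CPM in medial dKO, against 366 to 459 CPM in medial control, and to 313 to 371 CPM in dorsal dKO, against 283 to 454 CPM in dorsal control. For dKO minus control its 8 tested genes had medians of -1.44, 0.11 and -0.20 in orbital, medial and dorsal tissue. In medial tissue 5 of the 8 lay above 0, and 0 passed with edgeR and 1, Fabp7, with DESeq2. Mybpc1 was at 0 in all medial dKO libraries. Of the 8 genes 2 fell in orbital dKO relative to orbital control tissue, among them Prss56 (-6.34, SE 0.963, adjusted p = 0.0224), and 0 did without the dKO library of set A or without the prefix term. For the difference of the dKO effect, medial minus orbital, 3 of the 8 rose, and 0 did with no replicate block or without the dKO row of set A. Foxd3, a defining gene of the list, was at 0 in 5 of the 6 groups. The part of such tissue in the Th values was not tested. Genes most like Th were Gjb6 (0.87), Vangl1 (0.82) and Enpp2 (0.82).

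In the remaining region comparisons none of the 10 genes passed: medial minus orbital gave 0 in controls (9.02% of all genes passed) and 0 in dKO pups (0.016%). At unadjusted p under 0.05 it was 2 of 10 in controls and 3 in dKO pups, against 24.3% and 7.29% of all genes, and DESeq2 called none in either. In control pups, where 1769 of all 18730 genes fell in orbital relative to dorsal tissue, 5 of 13 medial eminence genes did so, among them Nos1 (-2.13), Elfn1 (-0.92) and Sox6 (-0.71), and Chodl was higher (2.98). The count of 5 became 2 without the control row of set C and 1 with no replicate block. Of 12 caudal eminence genes, 4 fell in the same comparison, which were Reln (-1.06), Prox1 (-0.79), Cnr1 (-0.74) and Npas1 (-0.56), while 2 did without any 1 of the 3 control rows and 0 with no replicate block. In dKO pups Npas1 (-0.77) was lower in orbital than in dorsal tissue, and Npas1 (-0.81) and Nr2f1 (-1.01) were lower in medial than in dorsal tissue. Without any 1 of the dKO rows Npas1 did not pass for orbital minus dorsal. For medial minus dorsal, Npas1 passed without the dKO row of set B and did not without that of set A or C, and Nr2f1 did not pass without any 1 of them. With no replicate block Npas1 passed for medial minus dorsal alone and Nr2f1 did not pass. Sst had higher fitted values outside dorsal tissue in both genotypes (orbital minus dorsal 0.69 in dKO and 0.41 in control), and Lhx6 lower ones (-0.51 in dKO and -0.31 in control), with adjusted p from 0.152 to 0.323 for these 4 values.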

How the data were processed

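The authors deposited raw counts, in fragments for each gene, made with featureCounts 1.6.2, in pairs and without strand, from Ensembl 94 gene models of GRCm38, per the file headers. Alignment with STAR 2.6 is given in the submitters' processing notes. RNA was isolated with a column kit and amplified from full-length cDNA (SMART-seq v4, Nextera XT), per the labels' protocols. Full-length amplification without molecular identifiers means that fragments are not independent molecules, so counting intervals cover counting error only. Of the table's sample columns 18 were matched to labels and used, and 6 were not used here. Symbols were found for 54495 of 54532 genes in GENCODE M21. Between replicates the chi-square per degree of freedom, which counting error alone would put near 1, was 41.8 to 190. No replicate was therefore a copy of another in its group. This value cannot tell separate animals from separate amplifications of the same RNA.

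CPM is the count scaled to 1000000 counted fragments in a library, and CPM per kb divides it by the table's gene length. Counts were tested in R 4.3.3 with edgeR 4.0.16 (TMM, filterByExpr with a minimum count of 10 and total of 15, quasi-likelihood F test), adjusted by Benjamini-Hochberg over all genes tested, at a threshold of 0.05. Each dKO comparison used 6 group means and the title prefix, without a term for the row, and so treated the libraries of a row as independent. Region comparisons and differences of the dKO effect used the index row as a block, and the summed comparison used 6 row sums with the prefix. All 10 genes passed the filter. The SE is derived from the log2 fold change and its F value and was left out at the highest p-values. Differences within a set use log2 CPM at a prior count of 2. Fits were tested on simulated data.

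All 10 genes are named. From 16 marker lists, at most 4 members per list and comparison past the threshold are named, by lowest p, as are the 3 genes most like each of the 10 by Pearson's r (mean of at least 5 CPM, no predicted, ribosomal, mitochondrial or sex-linked marker gene). List genes that DESeq2 alone called, Dbh, Pvalb, Foxd3 and the genes named under a left-out row were singled out after their values were seen. The genes and lists were chosen with earlier results of these data known. Lists were counted and not tested as sets. Some genes that the rule names are not reported here. Alternatives tried were DESeq2 1.42.0, limma-voom (limma 3.58.1), other scaling factors, testing without the filter, other batch terms, fits to a single region, a threshold of 0.01, and leaving out each library or row. Figures were drawn with matplotlib 3.10.9.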

Additional observations from a re-analysis of the deposited data

Results flagged for a closer look

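The fitted difference of the dKO effect on Npy, orbital minus dorsal, was -1.14 on the log2 scale (SE 0.263, unadjusted p = 0.000672 from edgeR's quasi-likelihood test). In that comparison 12.6% of all genes had an unadjusted p under 0.05. After adjustment over all genes Npy did not pass (adjusted p = 0.162, and 0.000343 to 0.882 over the alternatives). Within each of the 3 sets, dKO was lower than control in orbital tissue and higher than control in dorsal tissue. The differences on the log2 scale were -0.92 and 0.90 in set A, -0.50 and 0.29 in set B, and -0.68 and 0.30 in set C. They come from the same libraries as the fitted value. Npy was flagged because these differences had opposite signs in orbital and dorsal tissue in all 3 sets. The shared signs are therefore part of how Npy was picked and no separate test. The set is also a shared label, and the labels state no pairing.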

How the results depend on the processing

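For dKO minus control in medial tissue, 0 of the 10 genes passed, against 1 with no filter, 2 with DESeq2, 1 with limma-voom and 1 with the set as a replicate block, each including Dlx2. For medial minus dorsal in controls the 1 call (Th) became 2 (Th and Npy) with no filter, 0 with limma-voom, 0 with no replicate block, 0 at a threshold of 0.01, and 0 to 0 when leaving out single rows. For orbital minus dorsal in dKO pups the 1 call (Npy) became 3 with no filter, 3 with DESeq2, and 0 to 1 when leaving out rows. For medial minus dorsal in dKO pups the 1 call (Npy) became 3 with no filter, 3 with DESeq2, 2 with limma-voom, and 0 to 2 when leaving out rows. With no filter, 1 gene passed for medial minus orbital in controls and 1 in dKO pups, where 0 had. For the difference of the dKO effect, where 0 had passed, no filter gave 2 for orbital minus dorsal, 1 for medial minus dorsal and 1 for medial minus orbital, DESeq2 gave 1 for orbital minus dorsal, and leaving out rows gave 0 to 1 for medial minus orbital. The cause was not tested. Of the 130 fitted differences 93 kept their sign in every alternative, among them all 43 with unadjusted p under 0.05, and none reversed a call. Deviations from the group means correlated at 0.23, 0.03 and 0.28 between same-set libraries (A, B and C) in orbital tissue. They did so at 0.17, -0.07 and 0.06 in medial and 0.32, 0.03 and 0.20 in dorsal tissue. Between libraries of different sets the values ran from -0.28 to 0.10 in orbital, -0.22 to 0.19 in medial and -0.26 to 0.08 in dorsal tissue. In orbital and dorsal tissue the same-set values of sets A and C thus lay above all different-set values, and those of set B did not. The labels state no pairing, and whether the sets are pairs was not tested. Counts over all genes moved further. For dKO minus control, 7 genes passed in orbital tissue (2 with the region's own libraries, 430 with DESeq2), 389 in medial (19 without set A, 67 without the dKO library of set A, 1120 with DESeq2), 4 in dorsal (2 without the prefix term, 62 with DESeq2) and 5 in the summed data (3 and 359). For orbital minus dorsal, medial minus dorsal and medial minus orbital in controls 2965, 92 and 1690 passed, against 326, 1 and 19 with no replicate block and up to 4128 (DESeq2), 356 (no filter) and 2897 (DESeq2). In dKO pups 91, 392 and 3 passed, against 10, 65 and 1 with no replicate block and up to 339 (no filter), 1299 (DESeq2) and 197 (no filter). For the difference of the dKO effect 0, 0 and 275 passed, and up to 578 (no filter), 72 (no filter) and 1692 (DESeq2), with 0 of the 275 left with no replicate block. With TMM-scaled library sizes (factors of 0.933 to 1.09) 1 of 60 group means moved by over 1 SD. Depth limits Th most, with 4 fragments in the 3 dorsal controls.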

Other observations

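Among other cell types, 2 of 8 astrocyte markers rose in medial dKO relative to medial control tissue, where 221 of all 18730 genes tested rose. They were the glycolytic enzyme gene Aldoc (log2 fold change 1.22, SE 0.29, edgeR adjusted p = 0.0391) and the membrane protein gene Mlc1 (1.29, SE 0.309, adjusted p = 0.0408). The list's median was 0.59 in medial tissue, against -0.00 over all genes, with 0.08 for orbital and -0.04 for dorsal tissue, where 0 passed. Leaving out any single library left 0 of the medial calls, as did a fit without the prefix term. DESeq2 called 3 of the 8 in medial tissue, the same 2 and Gfap.

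Of 7 oligodendrocyte lineage markers 0 passed in medial or dorsal tissue. The lists of 13 cortical glutamatergic neuron, 8 microglia, 9 meningeal and 6 endothelial and pericyte genes gave 0 edgeR calls for dKO minus control in each region. At unadjusted p under 0.05 there were 1, 4, 2 and 0 of their genes for orbital, 4, 3, 0 and 0 for medial and 0, 1, 1 and 1 for dorsal tissue. Over all genes 13.9%, 15% and 6.78% had such a p in orbital, medial and dorsal tissue. DESeq2 called Crabp2 and Foxc1 of the meningeal list in orbital tissue, and Cux1 and Neurod1 of the glutamatergic list and Tmem119 of the microglial list in medial tissue. In orbital tissue the medians were 0.20 for glutamatergic neurons, -0.60 for microglia, -0.62 for meninges and -0.07 for endothelium and pericytes. In medial tissue they were -0.15, 0.37, 0.20 and 0.17 in the same order, and in dorsal tissue -0.10, 0.15, 0.26 and 0.30. All 8 microglial genes had a fitted value below 0 in orbital and above 0 in medial tissue.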
